A study of Homo sapiens with 16 samples.

Results

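The genes described here are the BCL2 family, the initiator and effector caspases listed with it, the apoptosome, the inhibitors of apoptosis and their antagonists, and the core of the death receptor complex. They are 36 of the 62700 genes in the deposited expression table of OCI-AML3, an established acute myeloid leukemia (AML) cell line, and were taken by matching each Ensembl ID to a fixed list of symbols. All 36 were found, 33 of them averaged 10 or more normalized counts across the 16 libraries and were tested, and BCL2L10, HRK and BIRC3 did not reach that level. The study asked how all-trans retinoic acid (ATRA), which activates all retinoic acid receptors, and Am80 (tamibarotene), a synthetic retinoid selective for the receptor RARA, act on AML cells with or without epigenetic inhibitors. RNA was taken 3 h after treatment. The groups were untreated cells (n = 4), 0.1 µM ATRA (n = 3), 0.1 µM Am80 (n = 3), ATRA with GSK-LSD1 (0.1 µM) plus MB3 (at 100 µM; n = 3), and Am80 with both compounds at these doses (n = 3). GSK-LSD1 inhibits the histone demethylase LSD1 and MB3 inhibits the histone acetyltransferase GCN5, and they are called "the inhibitors" below. No group received the inhibitors without a retinoid, no vehicle is named for the untreated cells, and the 2 inhibitors were always given together, so that their separate effects cannot be told apart.

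Apoptosis through the mitochondria is set by the balance of BCL2 proteins. Anti-apoptotic members such as BCL2 and MCL1 hold the pore formers BAX and BAK1 in check, and BH3-only proteins such as BIM (BCL2L11) and NOXA (PMAIP1) release them. Pores in the outer membrane free cytochrome c, which joins APAF1 to activate caspase-9, while XIAP blocks caspases and DIABLO and HTRA2 block XIAP. Death receptors use FADD to activate caspase-8, and CFLAR (cFLIP) competes at that step. AML cells are known to lean on BCL2 and MCL1, both of which are drug targets in this disease. The libraries measure messenger RNA only, and cell death was not measured in them.

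Between 11963898 and 33789718 reads were counted per library. The myeloid genes SPI1, CD33, CEBPA, FLT3 and PTPRC were expressed in every group, with means between 1343 normalized counts (CD33, Am80) and 8082 (PTPRC, untreated). MPO was low, at 46.9 in untreated cells. CD3E, HBB, EPCAM and COL1A1, which mark T cells, red cells, epithelium and fibroblasts, had group means of at most 2.03. The retinoid target DHRS3 had a mean of 27.3 in untreated cells and of at least 1602 in each treated group. The targets CYP26A1, RARB and TGM2 were also higher in each treated group than in untreated cells. On adding the inhibitors, CYP26A1 was at 0.447-fold of ATRA and 0.615-fold of Am80, and TGM2 at 0.580-fold and 0.660-fold. RARB (0.875-fold and 0.757-fold) and DHRS3 (0.681-fold and 0.692-fold) did not pass both limits used below. Mitochondrial genes took 6.02% to 7.53% of reads without the inhibitors and 7.07% to 9.21% with them. Their part in the results with the inhibitors was not tested. Nothing in the labels ties the replicates to separate cultures, so the p-values measure the spread between these libraries, which may be technical. In bulk RNA, fewer expressing cells and less RNA per cell cannot be told apart.

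In untreated cells MCL1 was the most abundant of the 36 transcripts per length of exon. Levels between genes are given as TPM, here reads divided by exon length and scaled to the same total in each library. MCL1 stood at 381 ± 21.5 TPM (SD, n = 4), ahead of CYCS, the gene for cytochrome c, at 227 ± 13.1, BAX at 186 ± 17.8, the mitotic inhibitor of apoptosis BIRC5 (survivin) at 169.6 ± 12.6, the BH3-only gene BID at 124 ± 11.3 and BCL2 at 87.4 ± 10.4. BAX and BIRC5 were within their SDs of each other, while MCL1 was apart from all other members. The next group lay between 58.1 ± 1.70 TPM for BCL2L13 and 53.8 ± 3.66 TPM for BAK1, with BCL2L12, BCL2L11 and APAF1 between them and no separation beyond their SDs. At the lower end were BIK at 5.85 ± 1.73 TPM, the caspase genes CASP10 at 4.89 ± 0.507 and CASP9 at 4.78 ± 0.514, and BOK at 1.22 ± 0.636. DIABLO was listed at 0.942 ± 0.115 TPM, but same-strand readthrough genes share 29.6% and 16.8% of its exon bases, and its count is uncertain for that reason. CYCS has many processed pseudogenes, so its level depends on how reads with several matches were counted.

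ATRA raised BIK, BMF, CASP9, BCL2A1 and XIAP, and so did Am80, each tested against the 4 untreated libraries that the comparisons share. A gene was called where limma gave an adjusted p under 0.05 and a change above 1.5-fold, and changes are on the scale of log2(normalized count + 1). With ATRA, 5 of 33 tested members were called higher and 0 lower, where 6.52% of all 14643 genes were called higher and 2.94% lower. With Am80, again 5 were higher and 0 lower, against 6.41% and 3.76% of all genes. These were 15.2% of the tested members in each comparison. BIK and BMF encode BH3-only proteins and CASP9 a caspase, while BCL2A1 and XIAP encode anti-apoptotic proteins. The median log2 change of all members was 0.11 with ATRA and 0.07 with Am80, beside -0.02 and -0.01 for all genes.

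BIK had the largest change of any member. Its product is a BH3-only protein of the endoplasmic reticulum and mitochondria (ENSG00000100290.3; chromosome 22, 43110748 to 43129712, plus strand, GRCh38). The untreated libraries held 23.7, 37.9, 22.4 and 25.5 normalized counts. ATRA gave 223, 229 and 249, and Am80 gave 279, 239 and 270.5. Each library with a retinoid alone was more than 5 times above the highest untreated one, and the log2 change was 3.08 ± 0.15 (SE) with ATRA and 3.25 ± 0.15 with Am80 (limma, adjusted p = 6.51e-13 and 3e-13). With the inhibitors BIK remained raised, at 146, 137 and 160.3 with ATRA and 240.1, 188 and 188 with Am80. The level with ATRA and the inhibitors was below that with ATRA alone in all 3 libraries, a change of -0.66 ± 0.16 on the log2 scale (limma, adjusted p = 0.00183), a call that quantile normalization did not keep. For Am80 the same difference was -0.36 ± 0.16 and was not called, with 1 of 3 libraries inside the range of Am80 alone. The interaction, which tests whether the inhibitors acted differently with Am80 than with ATRA, was 0.30 ± 0.22 for BIK (limma, adjusted p = 0.52).

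BMF was raised by either retinoid and returned to its untreated level when the inhibitors were present. BMF encodes a BH3-only protein that is held at the cytoskeleton (ENSG00000104081.14; chromosome 15, 40087890 to 40108892, minus strand). Counts were 178, 230.0, 171 and 182 in untreated cells. They were 625, 609 and 619 with ATRA and 608, 596 and 636 with Am80, a change of 3.26-fold and 3.23-fold (limma, adjusted p = 1.42e-10 and 1.55e-10). With the inhibitors they were 195, 148 and 206 with ATRA and 175, 184 and 206 with Am80. The retinoid libraries lay above every other library, and those with the inhibitors overlapped the untreated ones. The difference from untreated cells was -0.06 on the log2 scale with ATRA and the inhibitors (95% interval -0.30 to 0.17) and -0.01 with Am80 and the inhibitors (-0.24 to 0.23). Against the retinoid alone, the inhibitors changed BMF by -1.76 ± 0.12 with ATRA and -1.70 ± 0.12 with Am80 (limma, adjusted p = 8.33e-10 and 1.36e-09), the largest fall of any member in these comparisons.

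CASP9 encodes the initiator caspase of the mitochondrial route (ENSG00000132906.18; chromosome 1, 15490832 to 15526534, minus strand). The untreated libraries held 128, 120.1, 103 and 147 normalized counts, ATRA gave 346, 356 and 303 and Am80 gave 368, 315 and 350.0. All treated libraries were at least 2 times above the highest untreated library, and the folds were 2.69 and 2.76 (limma, adjusted p = 9.67e-10 and 6.07e-10). With the inhibitors CASP9 reached 392, 426 and 389 with ATRA and 602, 548 and 514 with Am80. The added rise over the retinoid was 0.27 ± 0.11 with ATRA, which was not called, and 0.69 ± 0.11 with Am80 (limma, adjusted p = 6.74e-05), which was not kept when reads were scaled to library totals. The interaction was 0.42 ± 0.16 (limma, unadjusted p = 0.0161, adjusted p = 0.248). The other caspase genes tested moved less. CASP10 passed the p limit below 1.5-fold in each comparison with untreated cells (0.30 to 0.48 on the log2 scale), CASP8 lay between -0.10 and 0.29 over the 6 comparisons, and CASP2 and CASP6 passed in none.

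XIAP, the most direct caspase blocker among the inhibitors of apoptosis, rose beside CASP9 (ENSG00000101966.14; chromosome X, 123859724 to 123913979, plus strand). Its counts were 1044, 1064, 1131 and 824 in untreated cells, 1930.1, 1673 and 1811 with ATRA and 1881, 2067 and 1778 with Am80. The inhibitors took it to 2672, 2809 and 2547 with ATRA and 2600.3, 2653 and 2608 with Am80. The groups formed 3 levels without overlap, untreated, retinoid and retinoid with inhibitors. The folds over untreated cells were 1.78 and 1.89 with the retinoids and 2.65 and 2.60 with the inhibitors added (limma, adjusted p = 1.99e-07, 4.68e-08, 3.07e-11 and 3.87e-11). The step from retinoid to retinoid with inhibitors passed the p limit but not the fold limit, at 0.57 ± 0.09 with ATRA and 0.46 ± 0.09 with Am80.

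BCL2A1, an anti-apoptotic BCL2 protein of blood cells also called BFL1, rose in each of the 6 comparisons with untreated cells or with the retinoid (ENSG00000140379.9; chromosome 15, 79960889 to 79971446, minus strand). The untreated libraries held 62.8, 72.0, 62.3 and 94.2 normalized counts, ATRA 127, 109.6 and 143 and Am80 186, 169 and 178. With the inhibitors the values were 266, 304 and 294 for ATRA and 362, 374 and 209 for Am80. Untreated libraries were below all treated ones, and replicate 3 of Am80 with inhibitors was far below the other 2 of its group, though above every library without inhibitors. The log2 changes from untreated cells were 0.80 ± 0.17, 1.29 ± 0.17, 1.99 ± 0.17 and 2.07 ± 0.17 in the order ATRA, Am80, ATRA with inhibitors and Am80 with inhibitors (limma, adjusted p = 0.00131, 5.19e-06, 4.99e-09 and 2.57e-09). Against the retinoid, the inhibitors raised it 2.28-fold with ATRA and 1.71-fold with Am80.

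**Figure D1:**
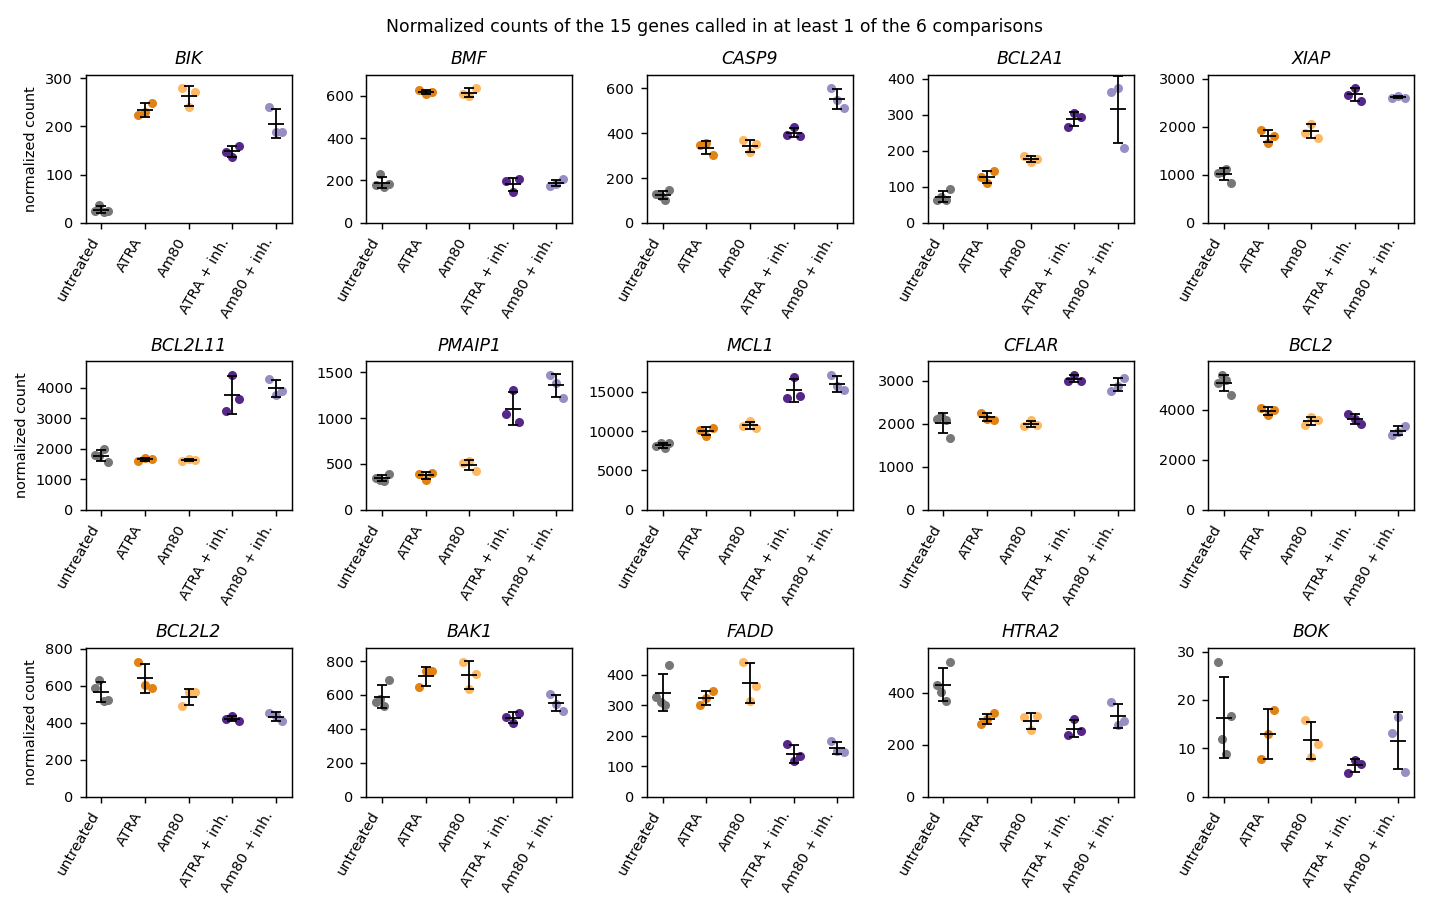
Normalized counts (y axis, from 0) of the 15 genes called in at least 1 of the 6 comparisons, by treatment group (x axis; inh. = GSK-LSD1 and MB3). Points are libraries, and bars are the group mean ± SD (n = 4 untreated, 3 in each other group). BIK, BMF and CASP9 are raised in all 6 libraries with a retinoid alone, BMF is back at its untreated level in all 6 with the inhibitors, and FADD is lowest there.

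Since these genes rose together within 3 h of a retinoid, the sequences before their RefSeq start sites are shown with the half-sites that retinoic acid receptors are known to bind. The half-sites searched were AGGTCA, the textbook form, with the variants AGTTCA and also GGGTCA and also GGTTCA, on both strands of the 250 bases before each start, and the shown stretches are those outside annotated exons (RefSeq, GRCh38.p14). Capitals mark a half-site, or its complement where it lies on the other strand. No marked half-site overlapped another. The stretches run 5′ to 3′ on the strand of the gene. BMF has 2 start sites, one at the 5′ end of the gene (chr15:40108893-40109129, minus strand) and one inside its annotated intron (chr15:40106967-40107216, minus strand). The CASP9 stretch is chr1:15524890-15525040 (minus strand) and the XIAP stretch is chrX:123859906-123860026 (plus strand), both in introns of their genes.
BMF, inner start: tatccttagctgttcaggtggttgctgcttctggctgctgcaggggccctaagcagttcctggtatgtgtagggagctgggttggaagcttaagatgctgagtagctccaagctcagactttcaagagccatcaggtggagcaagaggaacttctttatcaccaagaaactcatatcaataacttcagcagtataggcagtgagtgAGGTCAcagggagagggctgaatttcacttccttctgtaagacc
BMF, outer start: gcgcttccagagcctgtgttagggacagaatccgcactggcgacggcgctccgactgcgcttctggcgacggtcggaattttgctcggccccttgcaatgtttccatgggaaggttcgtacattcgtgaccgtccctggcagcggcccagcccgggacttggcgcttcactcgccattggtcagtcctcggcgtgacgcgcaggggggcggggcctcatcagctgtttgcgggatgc
CASP9: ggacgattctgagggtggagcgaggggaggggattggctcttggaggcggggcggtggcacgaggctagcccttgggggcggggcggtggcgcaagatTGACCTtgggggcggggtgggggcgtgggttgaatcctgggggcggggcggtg
XIAP: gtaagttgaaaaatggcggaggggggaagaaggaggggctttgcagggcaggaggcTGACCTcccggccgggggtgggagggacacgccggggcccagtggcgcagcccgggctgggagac
The BMF inner start had AGGTCA 44 bases before it, CASP9 had AGGTCA on the other strand beginning 152 bases before its start, and XIAP had it on the other strand beginning 91 bases before the start shown. Both listed starts of CASP9 had a half-site. XIAP has 3 listed starts, of which 2 had one, and the stretch just before the 5′ end of the gene (chrX:123859458-123859707, plus strand) held none. Such half-sites are common. At least 1 of the 4 was in 33.8% of the 35116 promoters of the same length and in 18 of the 57 promoters listed for 30 of the 36 members (31.6%). The BCL2A1 window held none. A match is a description of letters and does not show that a receptor binds there. BIK and MCL1 were not among the promoters used here.

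With the inhibitors present, more members were called against untreated cells than with a retinoid alone, in both directions. These comparisons include the retinoid, and BCL2A1, BIK, CASP9 and XIAP were already called higher with each retinoid alone. Against untreated cells, ATRA with inhibitors had 8 members higher and 3 lower, beside 14.2% and 14.8% of all genes, and Am80 with inhibitors had 7 higher and 2 lower, beside 12.9% and 13.1%. With ATRA the higher genes were BCL2A1, BCL2L11, BIK, CASP9, CFLAR, MCL1, PMAIP1 and XIAP and the lower ones BOK, FADD and HTRA2. With Am80 the higher genes were BCL2A1, BCL2L11, BIK, CASP9, MCL1, PMAIP1 and XIAP and the lower ones BCL2 and FADD, and both comparisons used the same untreated libraries. Against the retinoid alone, 4 members were higher and 5 lower with ATRA (8.15% and 11.4% of all genes), and 4 were higher and 2 lower with Am80 (6.81% and 8.9%). These last comparisons share no library. BCL2A1, BCL2L11 and PMAIP1 were higher and BMF and FADD lower in each of them. MCL1 was the fourth gene called higher with ATRA and CASP9 with Am80. BAK1, BCL2L2 and BIK were called lower with ATRA as well. In both directions together, 33.3% and 27.3% of the tested members were called against untreated cells and 27.3% and 18.2% against the retinoid, shares near those of all genes.

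BCL2L11 encodes BIM, a BH3-only protein that binds every anti-apoptotic BCL2 protein (ENSG00000153094.25; chromosome 2, 111119378 to 111168447, plus strand). It was at 1793, 1772, 1974 and 1554 normalized counts in untreated cells, 1599, 1679.5 and 1673 with ATRA and 1608, 1652 and 1622 with Am80, so that these 3 groups overlapped. The inhibitors brought it to 3222, 4415 and 3630.4 with ATRA and 4292, 3748 and 3882 with Am80, above every library without them. The rise over the retinoid was 2.26-fold and 2.44-fold (limma, adjusted p = 8.51e-09 and 2.25e-09). The long noncoding gene MIR4435-2HG overlaps 10.9% of its exon bases on the other strand, and its mean was 240.1 normalized counts in untreated cells and 208 with Am80 and the inhibitors, while BCL2L11 rose.

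PMAIP1 encodes NOXA, a BH3-only protein that acts mainly on MCL1 (ENSG00000141682.12; chromosome 18, 59899948 to 59904306, plus strand). Its counts were 350.0, 324, 311 and 386 in untreated cells and 395, 324 and 402 with ATRA, and the groups overlapped. Am80 gave 512, 531 and 427, all above the untreated libraries, and the change of 0.51 ± 0.11 passed the p limit but not the fold limit (limma, adjusted p = 0.00134). With the inhibitors PMAIP1 reached 1046, 1306 and 963 with ATRA and 1472, 1381 and 1218 with Am80, 2.94-fold and 2.77-fold above the retinoid (limma, adjusted p = 3.76e-09 and 8.01e-09). These were the largest rises of a member on adding the inhibitors. Among the other BH3-only genes, BID rose on adding the inhibitors, by 0.31 over ATRA and 0.27 over Am80 on the log2 scale, under the fold limit. BBC3, which encodes PUMA and is a known p53 target, passed the p limit in no comparison, with group means from 323 to 452. BAD, whose product is controlled by survival kinases, was compared with untreated cells. It was at -0.56 on the log2 scale with ATRA and the inhibitors (limma, adjusted p = 0.00627). With Am80 and the inhibitors it was at -0.21, which did not pass. HRK had at most 1 read in any library.

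MCL1, a short-lived anti-apoptotic protein and the main partner of NOXA, rose in the same libraries as PMAIP1 (ENSG00000143384.14; chromosome 1, 150574551 to 150579738, minus strand). Normalized counts were 8063, 8474, 7861 and 8519 in untreated cells, 10111, 9411 and 10451 with ATRA and 10688, 11237 and 10368 with Am80. With the inhibitors they were 14272, 16923 and 14497 for ATRA and 17163, 15808 and 15186 for Am80. The retinoid libraries lay just above the untreated ones and the libraries with inhibitors well above both, without overlap. The folds over untreated cells were 1.21, 1.31, 1.85 and 1.95 in the order ATRA, Am80, ATRA with inhibitors and Am80 with inhibitors, and the first 2 were under the fold limit. Over ATRA the inhibitors gave 1.52-fold, just past the limit (limma, adjusted p = 1.7e-06). That call was not kept without ATRA replicate 2, where the log2 change was 0.56, or without ATRA with inhibitors replicate 2, where it was 0.53. Over Am80 the log2 change was 0.58 ± 0.07, just inside the limit.

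BCL2 moved the other way (ENSG00000171791.14; chromosome 18, 63123346 to 63320128, minus strand). The untreated libraries held 5082, 5387, 5180.2 and 4596 normalized counts, and ATRA gave 4079, 3785 and 3986. Am80 gave 3371, 3704 and 3574, ATRA with inhibitors 3818, 3630.0 and 3425 and Am80 with inhibitors 3003, 3104 and 3345. Every treated library was below every untreated one, and those of Am80 with inhibitors were lowest. The log2 changes from untreated cells were -0.36 ± 0.07, -0.51 ± 0.07, -0.48 ± 0.07 and -0.68 ± 0.07 in the same order, all past the p limit, with the last alone past 1.5-fold (limma, adjusted p = 2.4e-08). The inhibitors added -0.12 to ATRA and -0.17 to Am80, and neither passed. BCL2L2, which encodes BCL-w, was at 729, 603 and 586 with ATRA and 419.8, 436 and 408 with ATRA and the inhibitors, without overlap (-0.59 on the log2 scale, limma, adjusted p = 4.47e-05). Without ATRA replicate 1, its highest library, this was -0.50 and was not called, and it was -0.57 without ATRA with inhibitors replicate 3. BCL2L2 was at 586, 629, 519 and 524 in untreated cells and 490, 566 and 563 with Am80. Am80 with the inhibitors gave 454, 437 and 407. This change over Am80 was -0.32 on the log2 scale, past the p limit but under the fold limit. The BCL2L2-PABPN1 readthrough shares 19.4% of the BCL2L2 exon bases. BCL2L1, which encodes BCL-XL, rose by at most 0.30 on the log2 scale against untreated cells. BCL2L10 had at most 3 reads per library, at the floor of 3 reads used here, and no fold is given.

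The anti-apoptotic transcript pool shifted from BCL2 toward MCL1 by these changes. The ratio of MCL1 to BCL2 in TPM was 4.39 ± 0.405 without treatment (SD, n = 4). ATRA took it to 6.81 ± 0.217 and Am80 to 8.17 ± 0.362, and the inhibitors to 11.3 ± 1.24 (ATRA) and 13.8 ± 1.58 (Am80), with n = 3 each. Of the summed TPM of the 6 anti-apoptotic BCL2 genes, MCL1 made up 71.8% ± 0.936 in untreated cells. Its share was 76.1% ± 0.777 and 77.5% ± 0.839 with ATRA and Am80 alone, and 81.3% ± 1.24 and 82.3% ± 1.06 once the inhibitors were added. BCL2 fell over the same groups from 16.4% ± 1.20 to 6.03% ± 0.731, and BCL2A1 went from 2.54% ± 0.476 to 6.42% ± 1.63. The sum itself went from 531 ± 33.4 TPM to 783 ± 49.7. Among the BH3-only genes, BIK took 2.23% ± 0.689 of the summed TPM in untreated cells, 16.4% ± 0.580 with ATRA and 16.5% ± 0.184 with Am80, and 7.61% ± 1.18 and 8.95% ± 0.695 with the inhibitors. BCL2L11 and PMAIP1 together led after BID with the inhibitors, at 27.3% ± 1.87 and 23.9% ± 1.91 with ATRA, and 24.9% ± 0.994 and 25.3% ± 1.03 with Am80. Shares of messenger RNA are not shares of protein, and no test was made on them.

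**Figure D2:**
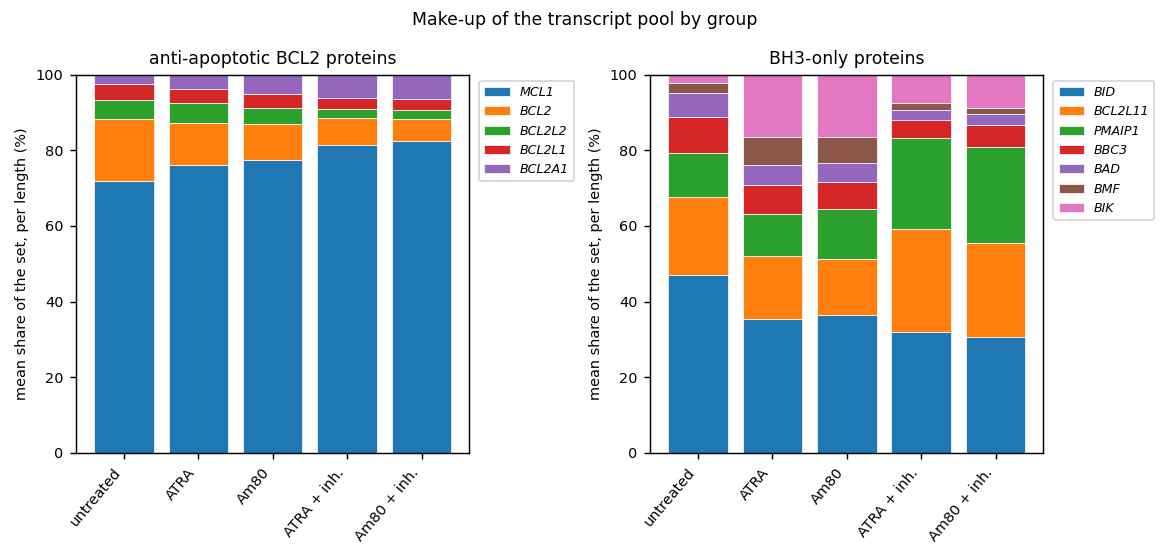
Mean share (y axis, percent of the summed TPM of the set) of each anti-apoptotic BCL2 gene (left) and each BH3-only gene (right) by group (x axis; inh. = GSK-LSD1 and MB3; n = 4 untreated, 3 in each other group). BCL2L10 and HRK are at or near 0 and are not drawn. The MCL1 share goes from 71.8% ± 0.936 (SD) in untreated cells to 82.3% ± 1.06 with Am80 and the inhibitors, and BIK is widest with a retinoid alone.

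Of the pore formers, BAX stayed within 1.5-fold, with group means between 2267 and 2697 normalized counts, and passed the p limit in no comparison. BAK1 was at 561, 578, 532 and 688 in untreated cells, 647, 744 and 739.7 with ATRA and 796, 634 and 726 with Am80. It was at 471, 434 and 496 with ATRA and the inhibitors and 604, 547 and 507 with Am80 and the inhibitors. The change from ATRA was -0.60 ± 0.10 on the log2 scale (limma, adjusted p = 8.19e-05), with no overlap. It was just past the fold limit, and the change was -0.57 without ATRA replicate 2 or 3 and -0.55 without ATRA with inhibitors replicate 2, none of which was called. Over Am80 the inhibitors changed BAK1 by -0.38 (limma, adjusted p = 0.00683), under the fold limit. Against untreated cells BAK1 was at 0.27 with ATRA, 0.29 with Am80 and -0.33 with ATRA and the inhibitors, each past the p limit only. With Am80 and the inhibitors it was at -0.09 and did not pass. BOK, a pore former of low abundance, had 4 to 25 reads per library. Its normalized counts were 27.9, 12.01, 8.72 and 16.6 in untreated cells and 4.88, 7.61 and 6.82 with ATRA and the inhibitors (-1.12 ± 0.41 on the log2 scale, limma, adjusted p = 0.0226). Without untreated replicate 1, its highest library, the log2 change was -0.83 with adjusted p = 0.0882 in limma, and without ATRA with inhibitors replicate 1 it was -0.96 with adjusted p = 0.0883. The other BCL2 relatives differed between themselves. BCL2L13, a mitochondrial member with a role in mitophagy, passed the p limit in all 6 comparisons, from 0.16 to 0.55 on the log2 scale and never past 1.5-fold, and BCL2L12, which shares 33.1% of its exon bases with IRF3 on the other strand, passed in none.

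FADD, the adaptor that carries caspase-8 to death receptors, fell with the inhibitors (ENSG00000168040.5; chromosome 11, 70203163 to 70207390, plus strand). Its counts were 325, 309, 300.2 and 429.9 in untreated cells, 301, 322 and 345 with ATRA and 442, 313 and 364 with Am80. They were 173, 116 and 133 with ATRA and the inhibitors and 183, 148 and 145 with Am80 and the inhibitors. All 6 libraries with the inhibitors were below all 10 without them. Relative to the retinoid FADD was at 0.433-fold with ATRA and 0.430-fold with Am80 (limma, adjusted p = 2.99e-06 and 3.19e-06). An annotated antisense gene covers 54.9% of the FADD exon bases and had 0 normalized counts in every group. The strand setting of the counting is not known, so these counts do not show that the antisense gene was silent. CFLAR, the competitor of caspase-8 at the same complex, was at 2109, 2168, 2090.0 and 1663 in untreated cells, 2259, 2116 and 2074 with ATRA and 1939, 2082 and 1972 with Am80. It was at 3000.1, 3134 and 3003 with ATRA and the inhibitors and 2769, 2881 and 3063 with Am80 and the inhibitors, above all other libraries. The rise over untreated cells was 0.61 ± 0.08 for ATRA with inhibitors (limma, adjusted p = 1.03e-06), and without untreated replicate 4, its lowest library, it was 0.52, under the fold limit. RIPK1, a kinase of the same complex, passed the p limit in each comparison with untreated cells, by 0.35 to 0.46 on the log2 scale.

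Among the remaining inhibitors of apoptosis, BIRC2 (cIAP1) rose by 0.31 with ATRA and 0.49 with Am80 on the log2 scale, and stood at 0.24 and 0.23 with the inhibitors, past the p limit and under the fold limit in each. BIRC6, a very large inhibitor that also attaches ubiquitin, passed the p limit in the 4 comparisons with the inhibitors, by 0.30 to 0.49. BIRC5 passed in none, with group means between 2939 and 3542. BIRC3 (cIAP2) had at most 2 reads in any untreated library, under the floor of 3 reads. Its mean was at least 2.34-fold higher with ATRA and the inhibitors and at least 2.74-fold higher with Am80 and the inhibitors than that floor, with 2 to 14 reads per library in those groups. In each of these groups 1 of 3 libraries was itself under the floor, and leaving out 1 library moved the bound between 1.57 and 3.19 with ATRA and between 1.76 and 3.64 with Am80, where the lowest value was without Am80 with inhibitors replicate 2. The antagonist gene HTRA2 was at 428, 404, 369 and 519 in untreated cells and 236, 297 and 252 with ATRA and the inhibitors, with no overlap (-0.71 ± 0.12 on the log2 scale, limma, adjusted p = 3.65e-05). ATRA alone gave 281, 297 and 321, Am80 alone 307, 257 and 309, and Am80 with the inhibitors 363, 276 and 292. Their log2 changes from untreated cells were -0.51, -0.55 and -0.47 in that order, each past the p limit but under the fold limit. Over the retinoid the inhibitors changed HTRA2 by -0.20 with ATRA and 0.09 with Am80, and neither passed. LOXL3 and AUP1 share 20.8% and 16.1% of its exon bases on the other strand. DIABLO, whose count is uncertain, passed the p limit only when the inhibitors were added to Am80. The change was 0.56 on the log2 scale (limma, adjusted p = 0.0388), under the fold limit. Of the apoptosome genes, APAF1 and CYCS stayed between -0.20 and 0.35 on the log2 scale in the 6 comparisons.

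**Figure D3:**
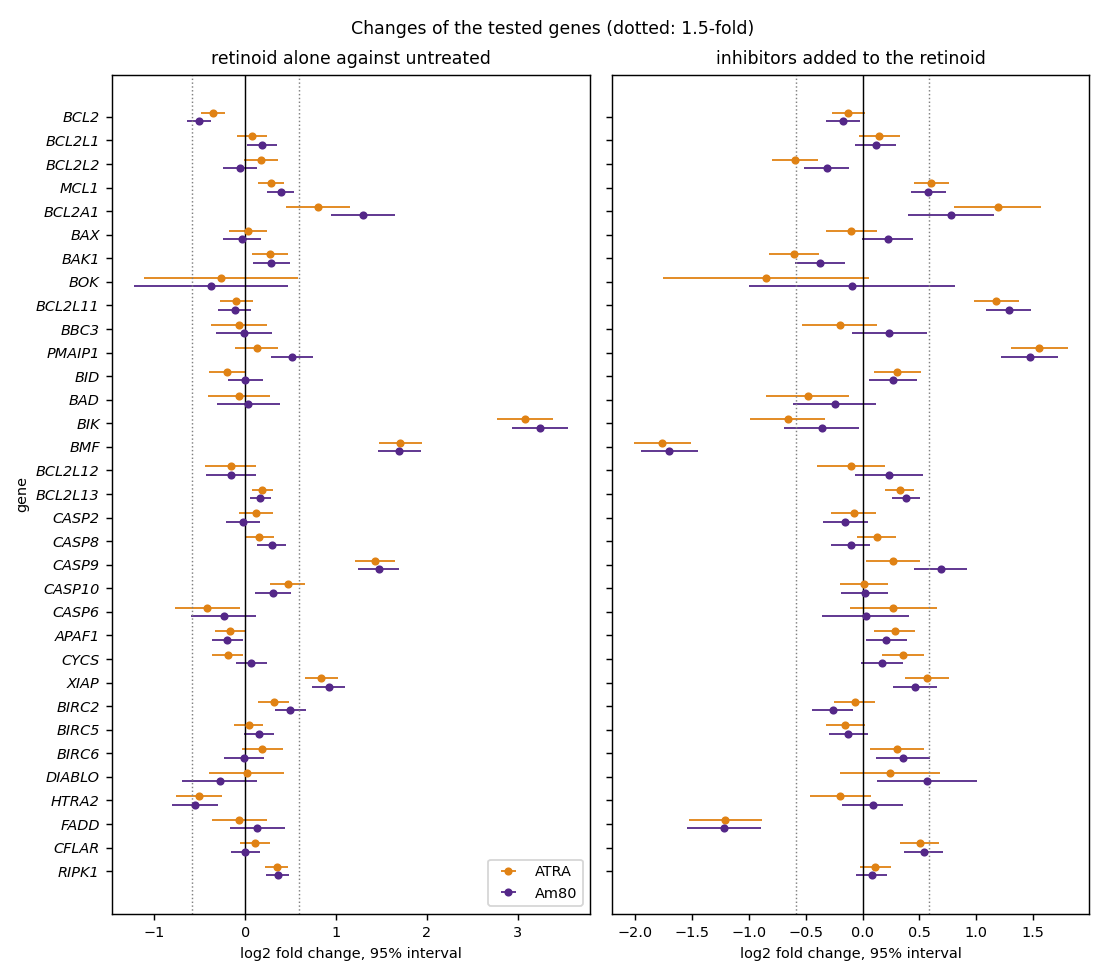
Log2 fold change (x axis, points) with its 95% interval (lines) for each of the 33 tested genes (y axis), for a retinoid alone against untreated cells (left) and for the inhibitors added to the same retinoid (right), with ATRA in orange and Am80 in purple. Dotted lines mark 1.5-fold. BMF is at 1.70 and 1.69 on the left and at -1.76 and -1.70 on the right, while BCL2L11 is near 0 on the left and at 1.17 and 1.29 on the right.

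By role, 20 tested members are pro-apoptotic, 10 are anti-apoptotic and 3 are in neither class. With ATRA alone 3 of the 20 and 2 of the 10 were called higher, and the same counts were found with Am80, where 6.52% and 6.41% of all genes were called higher. With ATRA and the inhibitors against untreated cells, 4 pro-apoptotic members were higher and 3 lower, and 4 anti-apoptotic members were higher and 0 lower, beside 14.2% and 14.8% of all genes. With Am80 and the inhibitors, 4 pro-apoptotic members were higher and 1 lower, and 3 anti-apoptotic members were higher and 1 lower, beside 12.9% and 13.1% of all genes. With so few members in a class, these counts are a description. The median log2 change against untreated cells was 0.07 and 0.18 for the pro-apoptotic members with ATRA and with Am80 in the presence of the inhibitors, and 0.36 and 0.32 for the anti-apoptotic ones, beside 0.00 for all genes in both. Neither class as a whole moved in 1 direction, and 18 tested members were called in none of the 6 comparisons.

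**Figure D4:**
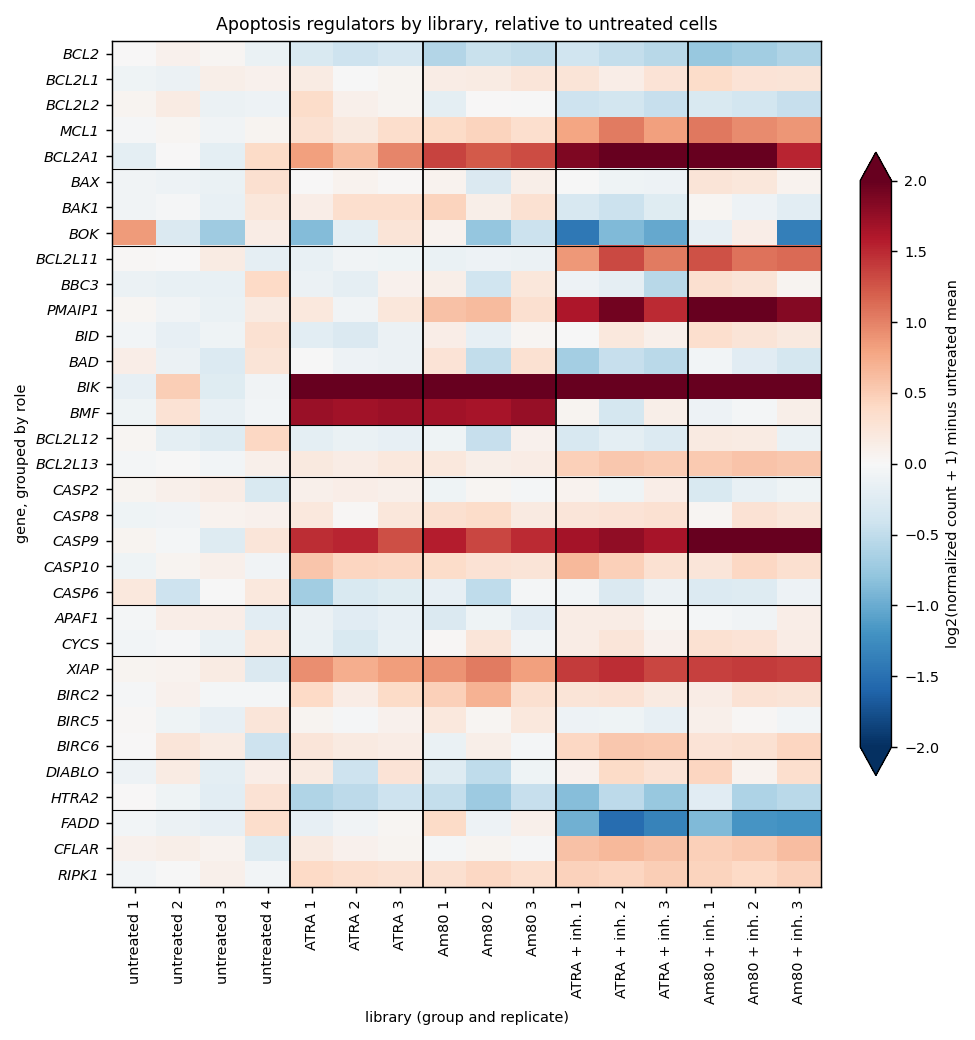
Heat map of the 33 tested genes (rows, grouped by role) in the 16 libraries (columns, by group and replicate; inh. = GSK-LSD1 and MB3). Color is log2(normalized count + 1) minus the untreated mean of that gene, from blue (lower) to red (higher), and values past 2 in either direction have the end color. BIK is red in all 12 treated libraries, BMF in the 6 with a retinoid alone, BCL2L11 and PMAIP1 most strongly in the 6 with the inhibitors, and FADD is blue there.

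Am80 and ATRA differ in structure and in receptor choice, and they were compared directly at the same dose and time over the 33 members, without and with the inhibitors, with p-values adjusted over all genes in each comparison. No member was called in either, by limma, edgeR or DESeq2. Without the inhibitors 0.0478% of all genes were called, 5 members had an unadjusted p under 0.05, the smallest adjusted p was 0.145 in limma, and the 95% interval of the difference lay inside 1.5-fold for 29 of 33 members. PMAIP1 had that smallest p, with Am80 above ATRA by 0.39 on the log2 scale (95% interval 0.14 to 0.64). BCL2A1 was 0.49 above ATRA (0.11 to 0.87), with all 3 Am80 libraries above all 3 of ATRA, and its interval reached past 1.5-fold. With the inhibitors 0% of all genes were called, 9 members had an unadjusted p under 0.05, the smallest adjusted p was 0.119 in limma, and 27 intervals were inside 1.5-fold. CASP9 was 0.46 higher with Am80 (95% interval 0.22 to 0.70), BBC3 0.49 (0.16 to 0.82) and BIK 0.46 (0.14 to 0.79). For the interaction 0% of all genes and 0 members were called by any of the 3 tools, with 2 members at an unadjusted p under 0.05, BAX and CASP9, and a smallest adjusted p of 0.248 in limma. These p-values miss the threshold and do not show that the retinoids act alike on the genes whose intervals cross 1.5-fold.

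**Figure D5:**
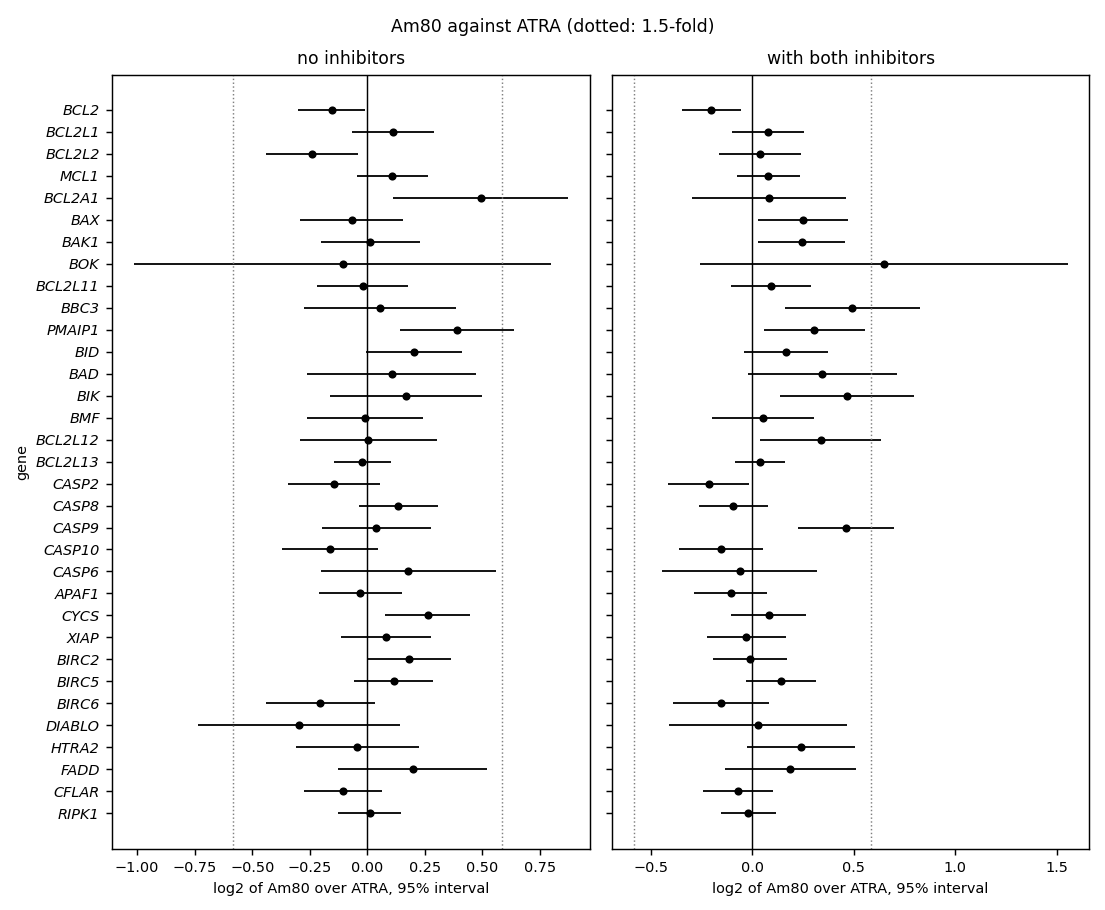
Log2 of Am80 over ATRA (x axis, points) with the 95% interval (lines) for each of the 33 tested genes (y axis), without the inhibitors (left) and with them (right). Dotted lines mark 1.5-fold. The interval lies between the dotted lines for 29 of 33 genes on the left and 27 of 33 on the right, and CASP9 on the right is at 0.46.

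Beyond the members, 30 other apoptosis genes were listed and 29 of them were tested. With ATRA alone 1 was higher and 1 lower (6.52% and 2.94% of all genes), and with Am80 alone 2 and 1 (6.41% and 3.76%). With ATRA and the inhibitors against untreated cells 7 were higher and 4 lower, 37.9% of the 29 in both directions, where 14.2% of all genes were higher and 14.8% lower. With Am80 and the inhibitors they were 7 and 3, or 34.5%, where 12.9% of all genes were higher and 13.1% lower. Against the retinoid alone 6 were higher and 4 lower with ATRA (8.15% and 11.4% of all genes), and 6 and 1 with Am80 (6.81% and 8.9%). None was called in the direct comparisons of Am80 with ATRA by limma, where 4 and 5 of them had an unadjusted p under 0.05. The cochaperone gene BAG3 had the smallest adjusted p of this list. It rose 3.93-fold over ATRA and 4.70-fold over Am80 with the inhibitors, and was at 0.12 and 0.27 on the log2 scale with the retinoids alone. RIPK3, a kinase of necroptosis, rose 3.12-fold and 3.21-fold with the retinoids and 5.61-fold and 5.69-fold with the inhibitors added. The death receptor genes FAS, TNFRSF10B and TNFRSF1A rose on adding the inhibitors, in the libraries where FADD fell, by 1.43, 0.66 and 0.73 on the log2 scale with ATRA and 1.31, 0.81 and 0.93 with Am80. FAS had been lower with the retinoids alone, by -0.52 and -0.45 on the log2 scale against untreated cells, so that its rise over untreated cells with the inhibitors was 0.91 with ATRA and 0.86 with Am80. TNFRSF10A, another death receptor gene, named here after its values were seen, was not called higher in any comparison. It was below untreated cells in all 4 treated groups, from -0.66 (Am80, called lower) to -0.30 (Am80 with inhibitors). XAF1, whose product is known to oppose XIAP, was at -1.12 and -1.32 on the log2 scale against untreated cells, in the libraries where XIAP was highest.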

How the data were processed

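RNA-seq of 16 OCI-AML3 libraries was used. The signal values are DESeq2-normalized counts: per the labels the authors used FastQC, cutadapt, STAR, featureCounts and DESeq2, and they deposited the reads per gene divided by a size factor for each library. The RNA and library kits differ between the labels and the paper's methods. Genome build, annotation release and strand setting are not given in the sources used here. Without a known strand setting, reads of a gene and its antisense partner cannot be told apart. Doses and time are from the paper's methods. All values were whole reads divided by 1 factor per library, and these reads were recovered for count tests.

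Genes with a mean of at least 10 were fitted as log2(normalized count + 1) with limma 3.58.1 in R 4.3.3, with a mean-variance trend, 1 coefficient per group, all 16 libraries, and Benjamini-Hochberg adjustment over all 14643 genes per comparison. Calls required an adjusted p under 0.05 and more than 1.5-fold. Alternatives were edgeR 4.0.16 and DESeq2 1.42.0 on recovered reads, pseudocounts of 0.5 and 5, no filter or a mean of 50, quantile normalization, only the groups compared, a replicate block, each library left out, and other limits. Scaling to total reads, and leaving out Am80 replicate 2 with untreated replicate 4, were chosen after seeing the data. The scripts were tested on simulated data. Positions and exon lengths are GENCODE on GRCh38 and promoters RefSeq GRCh38.p14. A group whose libraries each held 3 reads or fewer was taken as at the floor, which covers counting error only. Every member is described by role, those called in at least 1 of 6 comparisons library by library, and at most 8 other apoptosis genes by smallest adjusted p. Members and lists were chosen with earlier results of these data known.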

Additional observations from a re-analysis of the deposited data

Results flagged for a closer look

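In 4 of the 33 tested members, 1 of the 4 untreated libraries lay far from the other 3, with a gap that was most of the range of the group. Chance alone would give this in about 1 in 20 genes, or 1.65 of 33. BAX was at 2949 normalized counts in untreated replicate 4, where the next highest library held 2248. BBC3 was at 512 in the same library, where the next held 358. CFLAR was at 1663 there, below the next lowest at 2090. BIRC2 was at 1108 in untreated replicate 2, above the next at 1028. Untreated replicate 4 was the highest of its group for 17 and the lowest for 8 of the 33 members, and untreated replicate 3 the highest for 7 and the lowest for 19. With replicate 4 left out, the CFLAR rise with ATRA and the inhibitors was 0.52 on the log2 scale and under the fold limit, and BAX, BBC3 and BIRC2 were called in none of the comparisons above.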

How the results depend on the processing

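Of 45 pairs of a member and a comparison that were called, 38 were kept in each of up to 27 alternatives, 7 were lost in at least 1 and 0 changed direction. Without a fold limit the members called were 13 (ATRA against untreated), 15 (Am80 against untreated), 22 and 20 (ATRA and Am80 with inhibitors against untreated), and 17 and 16 (inhibitors added to ATRA and to Am80), where 24.6%, 28.8%, 60.2%, 54.7%, 49.3% and 39.5% of all genes were called. With an adjusted p under 0.01 and a log2 change above 1 they were 3 for ATRA against untreated, 7 for ATRA with inhibitors against untreated and 5 for inhibitors added to ATRA, where 4.25%, 10.7% and 5.1% of all genes were called. Leaving out 1 library gave 5 to 5, 5 to 7, 10 to 12, 9 to 9, 7 to 9 and 6 to 8 in the order above, and 0 in the direct comparisons and the interaction. Scaling to total reads moved the median of all genes by -0.15 and -0.19 (combinations against untreated cells) and by -0.16 and -0.13 (against ATRA and Am80). No called member changed direction, and the calls of CASP9 (0.56), MCL1 over ATRA (0.46) and CFLAR (0.46) fell under the fold limit. Quantile normalization lost BIK over ATRA (-0.53), BCL2L2 (-0.58), MCL1 over ATRA (0.48) and CFLAR (0.45). Same-numbered replicates had r from -0.11 to 0.19 (30 pairs), and replicates of different number from -0.23 to 0.23 (72 pairs). No pairing by number was seen, but such weak correlations cannot show that the numbers carry none. Of 15 libraries, 5 correlated best with a library of their own number. A replicate block, in which untreated replicate 4 has a level of its own, gave 5, 5, 10, 9, 9 and 6 calls. Low counts of BOK, BIRC3, BCL2L10 and HRK limit what depth can show.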
